A study of Mus musculus with 19 samples.

Results

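Unc5a, its receptor relatives Unc5b, Unc5c and Neo1, and the ligand genes Ntn1 and Ntn4 were followed in kidney and liver of male mice with or without macroH2A1.1. The 6 genes were chosen by family membership around Unc5a, and Unc5a itself was chosen because it was low in the knockouts, so its knockout values are a description without a test. All 6 were found among the 26506 genes of the count table. H2afy encodes the histone variant macroH2A1, and macroH2A1.1 is one of its splice forms. The knockouts (labelled mH2A1.1_KO) were homozygous for loss of the alternative exon 6b, which had been removed in the zygote by soluble Cre, and so were not tissue-specific. Wild types (WT) came from the same kind of heterozygous matings, and all mice were on a C57BL/6J background after at least 10 backcross generations. Kidney gave 5 knockout and 5 wild-type libraries and liver 5 knockout and 4 wild-type ones, each sequenced as whole tissue from poly(A) RNA. The labels state no ages and do not tie the standard and ketogenic diets to single mice. Since the labels do not state in words that each library of a group is a different mouse, p-values cover only library-to-library spread.

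Netrins are secreted, laminin-related guidance proteins that attract or repel growing axons and also act on vessels and epithelia. UNC5 receptors carry the repulsive response, and without ligand they can signal cell death, for which they are called dependence receptors. Neogenin, encoded by Neo1, binds netrins and the repulsive guidance molecules (RGM), and with hemojuvelin it takes part in the BMP signal that sets hepcidin in hepatocytes. In kidney, netrin-1 is known from the tubule epithelium and netrin-4 from basement membranes.

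Unc5a (ENSMUSG00000025876) lies on the plus strand of chromosome 13 from 54949411 to 55006018 (GRCm38). Its end is 1.07 Mb from the start of H2afy, the targeted gene, on the same chromosome. Its relatives lie elsewhere: Unc5b on chromosome 10 from 60762593 to 60831581, Unc5c on chromosome 3 from 141465216 to 141834924, and Neo1 on chromosome 9 from 58874687 to 59036441. Ntn1 lies on chromosome 11 from 68209364 to 68400823, and Ntn4 on chromosome 10 from 93640681 to 93747207. The sequences around the starts of the 3 UNC5 genes are shown because their expression differed in kind: Unc5a was low in knockouts, Unc5b was present in both tissues, and Unc5c had no read in liver. Each is the RefSeq promoter window on GRCm38.p6, 250 bases before to 50 after the start that RefSeq gives, read 5′ to 3′ on the gene's strand. The gene positions above are GENCODE's, and for Unc5c its start lies upstream of RefSeq's, so that the whole Unc5c window falls inside the GENCODE gene. Capitals mark GGGCGG on either strand, the core of the GC box, with overlapping matches counted. The windows are chr13:54949161-54949460 for Unc5a, chr10:60831532-60831831 for Unc5b and chr3:141465314-141465613 for Unc5c.
Unc5a: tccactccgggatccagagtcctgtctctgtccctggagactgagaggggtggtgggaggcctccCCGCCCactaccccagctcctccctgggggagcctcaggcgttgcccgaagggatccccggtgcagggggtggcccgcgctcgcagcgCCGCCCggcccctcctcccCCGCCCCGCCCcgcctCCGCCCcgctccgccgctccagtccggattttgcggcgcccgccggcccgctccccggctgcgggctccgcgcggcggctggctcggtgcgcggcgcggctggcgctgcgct
Unc5b: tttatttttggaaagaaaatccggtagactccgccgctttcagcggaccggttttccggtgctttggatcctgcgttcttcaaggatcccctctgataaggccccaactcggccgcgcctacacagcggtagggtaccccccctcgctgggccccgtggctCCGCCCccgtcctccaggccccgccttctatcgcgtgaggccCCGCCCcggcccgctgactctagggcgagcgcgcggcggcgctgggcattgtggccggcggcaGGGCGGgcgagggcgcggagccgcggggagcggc
Unc5c: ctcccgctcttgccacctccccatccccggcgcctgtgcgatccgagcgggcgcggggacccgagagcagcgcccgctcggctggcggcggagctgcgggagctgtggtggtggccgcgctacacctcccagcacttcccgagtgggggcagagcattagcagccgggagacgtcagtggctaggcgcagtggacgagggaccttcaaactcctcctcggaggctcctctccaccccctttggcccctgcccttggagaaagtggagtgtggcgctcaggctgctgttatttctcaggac
The Unc5a window held 5 such matches, the Unc5b window 3 and the Unc5c window 0. Of 32851 promoter windows of that length in the RefSeq table, 35.7% held at least 1. None of the 3 windows held TATAAA on either strand, which 13.6% of all windows did. All were rich in CpG, with 37 CpG in the Unc5a window, 36 in that of Unc5b and 24 in that of Unc5c, where the median over all windows was 7. The windows of Neo1 and Ntn4 had 54 and 31 CpG. No window of Ntn1 was used here.

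Libraries held 25919138 to 35131720 counts. Tissue identity was clear: summed proximal tubule markers were at 5760 to 7370 CPM in kidneys and at most 3.25 CPM in livers, while the lowest liver sum of hepatocyte markers was 112000 CPM and the highest kidney sum was 124 CPM. Levels are in CPM, counts relative to library size, scaled by TMM over all 19 libraries so that 1 scale serves both tissues. The library labelled wild-type 24 stood apart in both tissues in the targeted gene. H2afy was at 36.5 to 44.6 CPM in knockout kidneys, at 62.6 to 68.5 CPM in the other wild-type kidneys and at 49.4 CPM in the kidney labelled wild-type 24. In liver it was at 59.0 to 71.7 CPM in knockouts, at 102 to 121 CPM in the other wild types and at 72.5 CPM in the liver labelled wild-type 24. The log2 difference, knockout minus wild type, was -0.58 in kidney (SE 0.10, edgeR adjusted p = 0.135) and -0.61 in liver (SE 0.13, edgeR adjusted p = 0.384), without overlap in either tissue. The allele lacks 1 alternative exon, so whole-gene counts do not check the isoform. The genotype label of number 24 needs caution, since its H2afy lay below the other wild types in both tissues. Whether the label is right was not tested. The library is kept among the wild types, as labelled, in every wild-type mean unless stated, and Unc5a is also given without it.

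Unc5a was scarce in every library and scarcer in knockouts of both tissues. In kidney it was at 0.306, 0.383, 0.444, 0.555 and 0.75 CPM in knockouts 13, 14, 15, 16 and 18, against 2.86, 2.93, 3.16, 2.46 and 1.32 CPM in wild types 19, 20, 22, 23 and 24. The groups did not overlap, and the library labelled wild-type 24 was the lowest wild type. These levels rest on 13 to 34 counts in knockouts and 47 to 136 counts in wild types. The means were 0.488 ± 0.172 CPM in knockouts and 2.54 ± 0.729 CPM in wild-type kidneys (SD, n = 5 each), a log2 difference of -2.35 (SE 0.28). Knockout kidneys thus held 19.2% of the wild-type mean, or 17.1% when the library labelled wild-type 24 was left out. Over all genes tested, edgeR's quasi-likelihood test called 0.00579% in this comparison, and 2.95% had an unadjusted p under 0.05. Groups without overlap were found for 0.307% with knockouts lower and 0.266% with knockouts higher. As Unc5a was chosen on this contrast, nothing is read from these shares. In bulk tissue, fewer cells expressing a gene and less RNA per cell cannot be told apart.

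In liver Unc5a was at 0.725, 1.11, 1.15, 1.34 and 1.05 CPM in knockouts 13, 14, 15, 16 and 18, against 4.67, 3.37, 4.16 and 1.10 CPM in wild types 19, 20, 22 and 24. Here the groups overlapped, because the library labelled wild-type 24 lay among the knockouts, while the other 3 wild-type livers were all above every knockout. The counts were 18 to 30 in knockouts and 21 to 113 in wild types. The means were 1.08 ± 0.224 CPM in knockout livers (SD, n = 5) and 3.32 ± 1.58 CPM in wild-type livers (SD, n = 4), a log2 difference of -1.62 (SE 0.35). Without the library labelled wild-type 24 the wild-type mean was 4.07 ± 0.656 CPM (SD, n = 3) and the log2 difference -1.90. In this comparison edgeR called 0% of genes, 4.17% (609 genes) had an unadjusted p under 0.05, and DESeq2 called 42 genes. Knockouts were lower without overlap for 0.912% and higher for 0.726%. The effect in liver minus the effect in kidney was 0.74 (SE 0.47) for Unc5a.

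**Figure D1:**
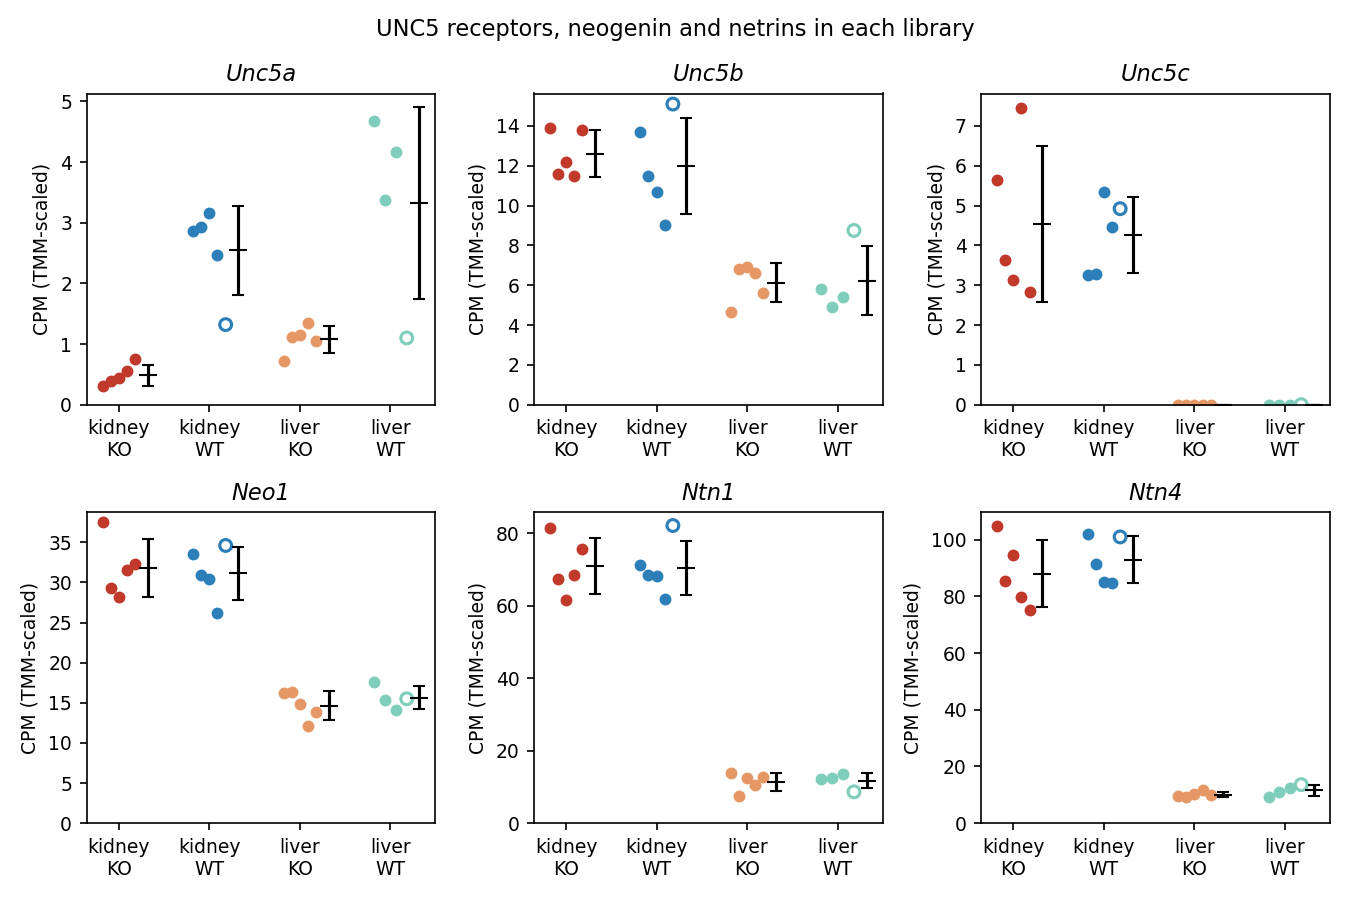
Level of each gene in every library (y axis, CPM after TMM scaling) by tissue and genotype (x axis). Filled points are libraries, open circles the library labelled wild-type 24, and bars the mean ± SD. Unc5a was the member with separate knockout and wild-type kidneys, and Unc5c had no read in liver.

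Unc5a and H2afy were both reduced in the library labelled wild-type 24, by unequal amounts. Its Unc5a level was 46.3% of the mean of the other wild types in kidney and 27.1% in liver. Its H2afy level was 74.2% of that of the other wild types in kidney and 65.9% in liver. Knockouts averaged 17.1% for Unc5a and 62.9% for H2afy in kidney, and 26.5% and 59.4% in liver, on the same basis. In kidney the library labelled wild-type 24 therefore lay between the groups for both genes. In liver it was inside the knockout range for Unc5a and next to it for H2afy.

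**Figure D2:**
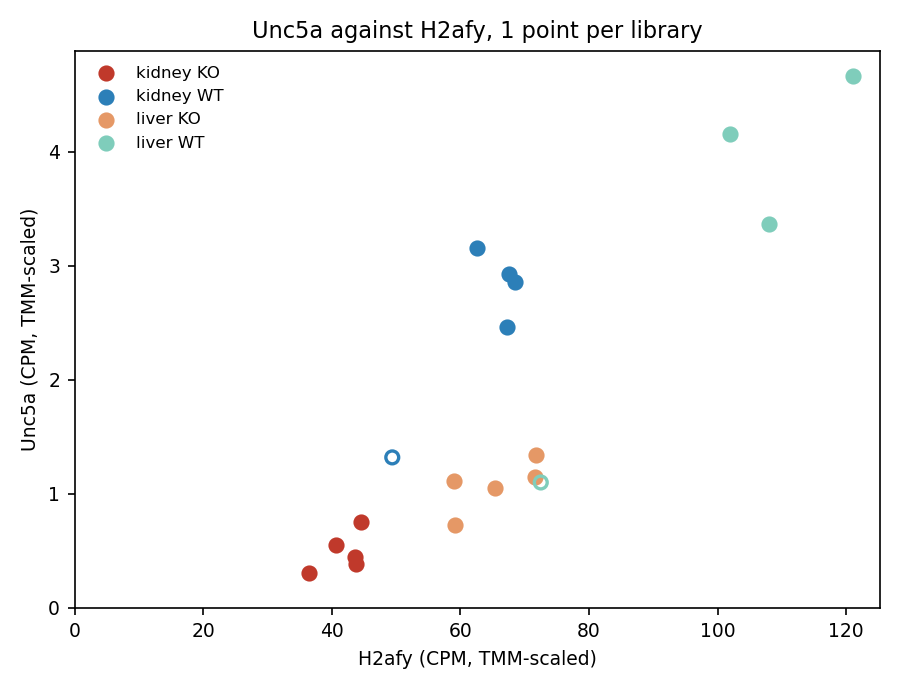
Unc5a (y axis) against H2afy (x axis), both in CPM after TMM scaling, 1 point per library, with the library labelled wild-type 24 as open circles. In kidney it lies between knockouts and the other wild types, and in liver beside the knockouts, which reached 71.7 CPM of H2afy and 1.34 CPM of Unc5a.

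The annotated neighbours of Unc5a were not called in either tissue, where edgeR called 0.00579% of all genes in kidney and 0% in liver. Hk3, a hexokinase gene on the opposite strand, overlaps the end of Unc5a by 34 bases, and whether counting used strand is not stated in the labels. Hk3 was at 0.883 ± 0.323 CPM in knockout kidneys and 0.643 ± 0.331 CPM in wild-type kidneys (SD, n = 5 each), a log2 difference of 0.46 (SE 0.38, edgeR adjusted p = 0.999). In liver it was at 4.83 ± 0.967 CPM in knockout livers (SD, n = 5) and 4.16 ± 0.451 CPM in wild-type livers (SD, n = 4; log2 difference 0.23, edgeR adjusted p = 1). The nearest tested genes on each side without overlap were Tspan17, a tetraspanin gene, and Uimc1, whose product binds ubiquitin chains at DNA breaks. Tspan17 differed by 0.04 in kidney and 0.11 in liver, and Uimc1 by 0.05 and -0.07, all with an edgeR adjusted p of at least 0.999.

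By a fixed rule, the 5 genes whose kidney and liver knockout differences lay nearest to those of Unc5a were Fosb, 9430065F17Rik, Fos, S100a8 and S100a9. Likeness was the straight-line distance between the pairs of log2 differences, over 13847 genes tested in both tissues. Fosb and Fos are immediate early transcription factor genes, and S100a8 and S100a9 encode the calprotectin of neutrophils. Their distances ran from 0.622 for Fosb to 1.03 for S100a9. Unlike Unc5a, the groups of Fosb, Fos, S100a8 and S100a9 overlapped in kidney, and each varied widely among wild types. Fos averaged 1.74 ± 1.54 CPM in knockout kidneys and 7.76 ± 13.9 CPM in wild-type kidneys (SD, n = 5 each). The gene model 9430065F17Rik, also on chromosome 13 (67553035 to 67564010), was lower without overlap in knockout kidneys, at 0.209 ± 0.0872 CPM against 0.782 ± 0.299 CPM in wild-type kidneys (SD, n = 5 each). Its liver groups overlapped, at 0.114 ± 0.189 CPM in knockouts (0 to 10 counts, SD, n = 5) and 0.486 ± 0.174 CPM in wild types (6 to 17 counts, SD, n = 4). Over all genes tested in kidney, knockouts were lower without overlap for 0.307%. The rule takes genes that are low in knockouts, so nothing is read from the kidney groups of 9430065F17Rik.

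None of the other 5 members was called between knockouts and wild types in either tissue, where edgeR called 0.00579% of all genes in kidney and 0% in liver. In none of those tested were the groups apart (0 of 5 in kidney, 0 of 4 in liver). Over all genes, knockouts were lower without overlap for 0.307% in kidney and 0.912% in liver, and higher for 0.266% and 0.726%. Most genes would give the same result. Unc5b, the netrin receptor known from endothelium, was at 13.9, 11.6, 12.2, 11.5 and 13.8 CPM in knockout kidneys 13, 14, 15, 16 and 18, against 13.7, 11.5, 10.7, 9.01 and 15.1 CPM in wild types 19, 20, 22, 23 and 24. The log2 difference was 0.09 (95% interval -0.20 to 0.37, edgeR adjusted p = 0.999). The knockout kidneys lay inside the wider range of the wild-type kidneys, whose highest library was the one labelled wild-type 24. Liver Unc5b was at 4.63, 6.83, 6.92, 6.61 and 5.61 CPM in knockouts 13, 14, 15, 16 and 18, against 5.82, 4.93, 5.4 and 8.75 CPM in wild types 19, 20, 22 and 24 (log2 difference -0.02, 95% interval -0.45 to 0.41, edgeR adjusted p = 1). The sign turned without the library labelled wild-type 24 (0.20) and without knockout 13 (0.07) or 18 (0.02).

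Unc5c, which in neurons mediates repulsion, had reads in kidney alone. It was at 5.63, 3.64, 3.14, 7.44 and 2.82 CPM in knockout kidneys 13, 14, 15, 16 and 18, against 3.26, 3.29, 5.35, 4.45 and 4.92 CPM in wild types 19, 20, 22, 23 and 24. The knockout values spread more, with a CV of 43.2% against 22.3% in wild types, and their highest library was mouse 16. The log2 difference was 0.11 (95% interval -0.43 to 0.64, edgeR adjusted p = 0.999), and it turned to -0.15 without mouse 16. Knockout kidney 16 also had the highest sum of 9 nerve markers, 12.3 CPM, where the other knockout kidneys had 5.68 to 7.92 CPM and wild-type kidneys 5.55 to 7.80 CPM. Th and Dbh, genes of catecholamine synthesis, gave 3.65 and 2.42 CPM of that sum. Without them it was 6.22 CPM in knockout kidney 16, inside the range of the other kidneys. The part of these markers in the Unc5c value was not tested.

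Neo1 was at 37.5, 29.3, 28.2, 31.6 and 32.3 CPM in knockout kidneys 13, 14, 15, 16 and 18, against 33.5, 30.9, 30.4, 26.2 and 34.6 CPM in wild types 19, 20, 22, 23 and 24 (log2 difference 0.05, 95% interval -0.17 to 0.26, edgeR adjusted p = 0.999). In liver it was at 16.2, 16.3, 14.8, 12.1 and 13.9 CPM in knockouts and at 17.6, 15.4, 14.1 and 15.5 CPM in wild types 19, 20, 22 and 24 (log2 difference -0.08, 95% interval -0.34 to 0.18, edgeR adjusted p = 1). The groups overlapped over most of their range in both tissues.

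The ligand gene Ntn1 was at 81.5, 67.5, 61.5, 68.5 and 75.7 CPM in knockout kidneys 13, 14, 15, 16 and 18, against 71.3, 68.4, 68.3, 62.0 and 82.2 CPM in wild types 19, 20, 22, 23 and 24 (log2 difference 0.02, 95% interval -0.19 to 0.23, edgeR adjusted p = 0.999). Liver values were 13.8, 7.58, 12.6, 10.5 and 12.7 CPM in knockouts and 12.1, 12.5, 13.6 and 8.65 CPM in wild types 19, 20, 22 and 24 (log2 difference -0.03, 95% interval -0.43 to 0.38, edgeR adjusted p = 1). Each liver group held 1 low library, knockout 14 and the one labelled wild-type 24. Ntn4, which encodes the laminin-binding netrin-4, was at 105, 85.6, 94.6, 79.8 and 75.3 CPM in knockout kidneys 13, 14, 15, 16 and 18, against 102, 91.6, 85.0, 84.9 and 101 CPM in wild types 19, 20, 22, 23 and 24 (log2 difference -0.06, 95% interval -0.27 to 0.14, edgeR adjusted p = 0.999). Its liver values were 9.55, 9.14, 10.2, 11.7 and 9.78 CPM in knockouts and 9.13, 11, 12.4 and 13.6 CPM in wild types 19, 20, 22 and 24 (log2 difference -0.18, 95% interval -0.50 to 0.13, edgeR adjusted p = 1). The liver groups overlapped, with 3 of 4 wild types above the knockout mean of 10.1 CPM.

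**Figure D3:**
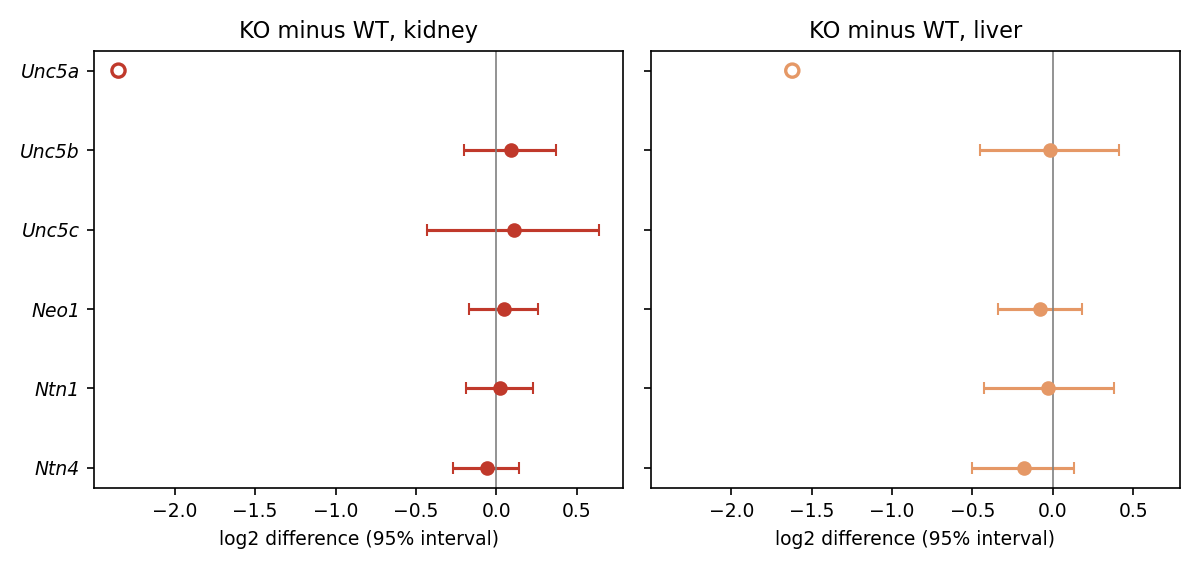
Log2 difference, knockout minus wild type (x axis), of each member (y axis) in kidney and liver. Filled points carry a 95% interval from the edgeR fit, Unc5a is drawn open without one because it was chosen on this contrast, and Unc5c had no read in liver. The filled points lie between -0.18 and 0.11.

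The effect in liver minus the effect in kidney was -0.09 for Unc5b (SE 0.24), -0.12 for Neo1 (SE 0.15), -0.05 for Ntn1 (SE 0.20) and -0.11 for Ntn4 (SE 0.16), each with an edgeR adjusted p of 1. Over all 18549 genes in that fit, 0% were called, and 4.12% had an unadjusted p under 0.05; DESeq2 called 11 genes.

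Between tissues the family differed widely. Kidneys held 90.5 ± 10 CPM of Ntn4 (SD, n = 10) and livers 10.7 ± 1.57 CPM (SD, n = 9), a log2 difference of 3.03 (SE 0.09, edgeR adjusted p = 1.79e-19). Ntn1 was at 70.7 ± 7.16 CPM in kidneys (SD, n = 10) and 11.6 ± 2.19 CPM in livers (SD, n = 9; log2 difference 2.57, SE 0.11, edgeR adjusted p = 2.22e-16). For both ligands every kidney was far above every liver. Neo1 was higher in kidney by 1.01 (SE 0.08, edgeR adjusted p = 2.98e-11) and Unc5b by 0.96 (SE 0.12, edgeR adjusted p = 1.25e-07), again with each kidney above each liver. Summed endothelial markers were higher in kidney too, at 481 to 554 CPM, against 288 to 337 CPM in liver. Of these markers 9 of 10 passed the test, where 81.1% of all genes passed and 45.5% were higher in kidney. Their part in the Unc5b difference was not tested. Unc5c had 0 counts in all 9 livers, of 280812159 counts in total, and 4.39 ± 1.46 CPM in kidneys (SD, n = 10). Taking 3 counts over the 9 livers as the limit that 0 allows, it was at least 300.3-fold higher in kidney. That limit covers counting error only.

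Unc5a was the member that ran the other way on this scale, with 1.52 ± 1.19 CPM in kidneys (SD, n = 10) and 2.08 ± 1.54 CPM in livers (SD, n = 9). The log2 difference, averaged over genotypes, was -0.80 (SE 0.24), but with library totals in place of TMM it was 0.11. This average includes the knockout values on which Unc5a was chosen, so it is given without a test. Library totals moved the median of all genes from 0.17 to 1.07. Relative to that median Unc5a was at -0.97 with either scaling, Unc5b at 0.78 and Neo1 at 0.84. Unc5b, Neo1, Ntn1 and Ntn4 all passed the test with TMM. Of all genes 81.1% did (82% at an unadjusted p under 0.05), 45.5% higher and 35.5% lower in kidney. With library totals 13836 genes were higher and 2662 lower, against 8446 higher and 6592 lower with TMM. By genotype the Unc5a difference was -1.17 in knockouts (SE 0.35) and -0.43 in wild types (SE 0.32). Both genotypes enter the contrast on which Unc5a was chosen, so these are given without a test. They do not show that the genotypes differ.

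**Figure D4:**
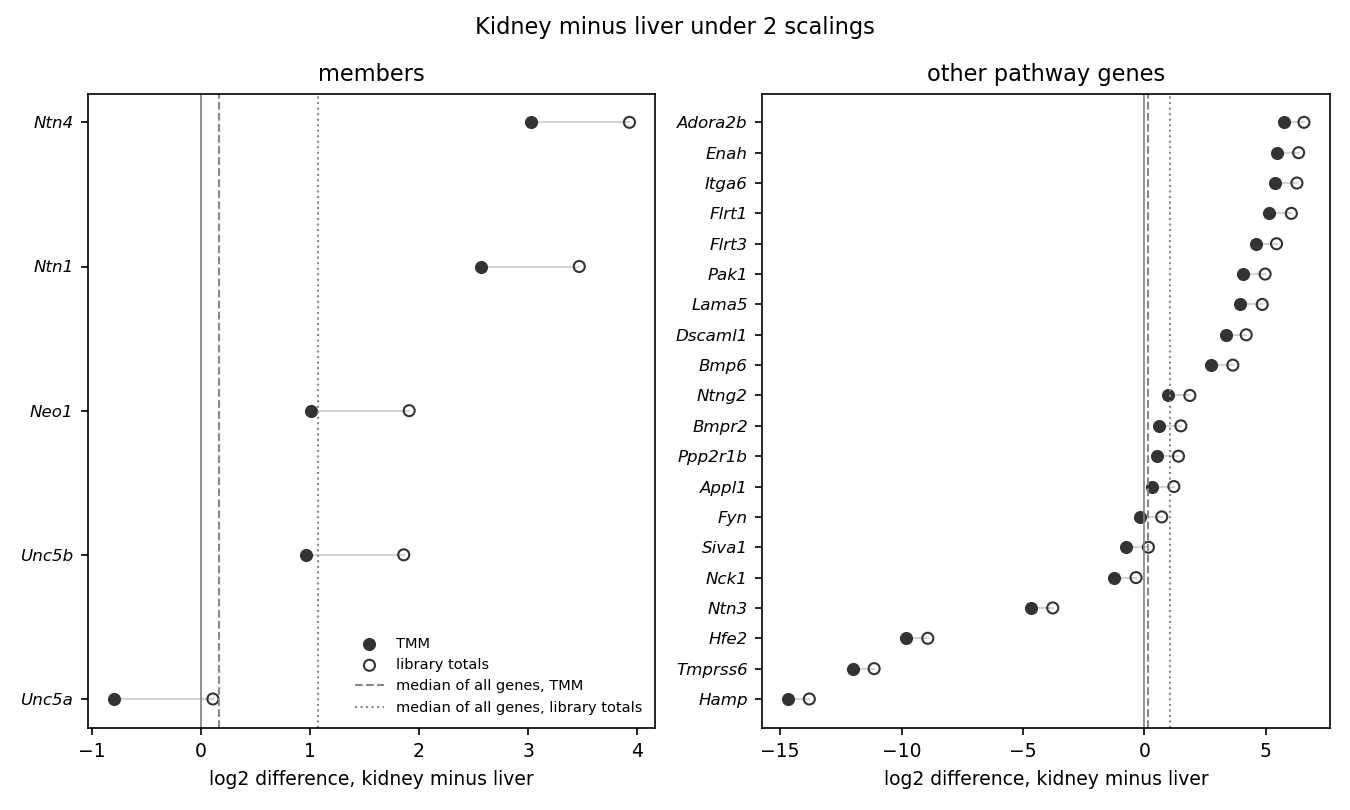
Log2 difference, kidney minus liver (x axis), of 5 members and of other pathway genes with large differences within their list (y axis), with TMM (filled) and with library totals (open); vertical lines give 0 and the median of all genes under each scaling, 0.17 and 1.07. Unc5a changes sign with the scaling, and Ntn4 is the highest of the members drawn.

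In order of the 4 groups, Unc5a was highest in wild-type liver, then wild-type kidney, knockout liver and knockout kidney. Neighbours in that order overlapped: the wild-type kidneys lay inside the range of the wild-type livers, wild-type kidney overlapped knockout liver between 1.32 and 1.34 CPM, and knockout liver with knockout kidney between 0.725 and 0.75 CPM. Without the libraries labelled wild-type 24, wild-type livers were at 3.37 to 4.67 CPM, wild-type kidneys at 2.46 to 3.16 CPM and knockout livers at most at 1.34 CPM, so that only the knockout groups overlapped. With library totals the wild-type kidneys came first, at 3.34 ± 0.968 CPM (SD, n = 5), and wild-type livers second, at 2.42 ± 1.14 CPM (SD, n = 4). For Unc5b, Neo1, Ntn1 and Ntn4 both kidney groups lay above both liver groups, and the genotypes within a tissue did not differ beyond their spread.

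Per kilobase of exon the ligands outweighed the receptors in kidney. In kidney Ntn4 was at 20.1 to 28.1 CPM per kb, Ntn1 at 9.79 to 13.1, Neo1 at 3.01 to 4.30 and Unc5b at 1.44 to 2.42, with no overlap between neighbours. Below these lay Unc5a, with 0.117 ± 0.0414 CPM per kb in knockouts and 0.610 ± 0.175 in wild types (SD, n = 5 each), and Unc5c with 0.148 to 0.389. The mean of Unc5a was above that of Unc5c in wild-type kidneys and below it in knockout kidneys. In liver the order was flatter: Ntn4 at 2.44 to 3.63, Ntn1 at 1.21 to 2.20, Neo1 at 1.39 to 2.02 and Unc5b at 0.740 to 1.40 CPM per kb. Ntn1, Neo1 and Unc5b overlapped there. With the longest transcript Neo1 averaged 1.99 CPM per kb in knockout and 2.12 in wild-type livers, and Ntn1 1.95 and 2. Of the summed level per kb of the 6 genes, Unc5a made up 0.293% ± 0.12 in knockout kidneys and 1.47% ± 0.467 in wild-type kidneys (SD, n = 5 each). Its share in liver was 3.48% ± 0.723 in knockouts (SD, n = 5) and 9.32% ± 4.38 in wild types (SD, n = 4). The Unc5c value depends on which exons are counted, and was 0.470 CPM per kb in knockout and 0.441 in wild-type kidneys with the longest transcript, against means of 0.237 and 0.222 with all exons.

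Around the family, 7 lists held 69 other genes of netrin biology, of which 67 were in the table. Between knockouts and wild types 0 of 60 tested in kidney and 0 of 58 in liver were called by edgeR, with 0 and 1 at an unadjusted p under 0.05. Their median log2 difference was 0.02 in kidney and -0.04 in liver, where that of all genes was 0.01 and 0.00. The smallest p values in kidney belonged to the transferrin receptor gene Tfr2 (-0.71, SE 0.35), the adhesion molecule and reported netrin receptor gene Mcam (-0.14, SE 0.07) and Smad7, an inhibitor of BMP and TGF-beta signalling (0.17, SE 0.14), each with an edgeR adjusted p of 0.999. Mcam was at 17.7 to 19.9 CPM in knockout kidneys and 20.0 to 21.8 CPM in wild-type kidneys, the 1 of 60 list genes whose groups did not overlap there, where over all genes 0.307% were lower and 0.266% higher in knockouts without overlap. In liver they belonged to Trp53 (-0.26, SE 0.12), Rgma, which encodes a neogenin ligand (-1.14, SE 0.52), and the laminin gene Lamb1 (-0.26, SE 0.13), each with an edgeR adjusted p of 1. Rgma rested on few counts, 1 to 10 in knockout livers and 8 to 19 in wild-type livers. So did Tfr2 in kidney, with 5 to 21 counts in knockouts and 20 to 23 in wild types.

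Other receptors and ligands of the family were sparse or tissue-bound. Dcc, the attractive netrin receptor, had at most 5 counts in a library, and Unc5d at most 3 in kidneys and 0 in every liver, so neither was tested. Draxin, a secreted DCC ligand, had at most 8 counts. Ntn3 was the netrin with more in liver: 0.395 ± 0.131 CPM in knockout kidneys and 0.419 ± 0.141 in wild-type kidneys (SD, n = 5 each), against 9.47 ± 1.65 in knockout livers (SD, n = 5) and 10.9 ± 1.76 CPM in wild-type livers (SD, n = 4). Its log2 difference, kidney minus liver, was -4.67 (SE 0.17, edgeR adjusted p = 1.79e-17). The netrin-G gene Ntng1 had 0 counts in liver and 0.435 ± 0.168 CPM in kidneys (SD, n = 10), at least 29.7-fold higher by the limit of 3 counts over the 9 livers. Ntng2 was higher in kidney by 0.98. Of the other receptors, Adora2b, an adenosine receptor gene reported to bind netrin-1, was higher in kidney by 5.75 and Dscaml1 by 3.38, both past the test.

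Counts of the lists are to be read beside those of all genes, of which 45.5% were higher and 35.5% lower in kidney with TMM, and 13836 higher and 2662 lower of 18549 with library totals. Of 8 genes for other UNC5 and neogenin partners, 7 were higher in kidney and 1 lower with TMM and with library totals. The UNC5-binding adhesion proteins were among the highest, Flrt1 by 5.16 and Flrt3 by 4.59. The exception was hemojuvelin (Hfe2), a hepatocyte partner of neogenin. It was at 0.116 ± 0.0774 CPM in knockout kidneys and 0.123 ± 0.111 in wild-type kidneys (SD, n = 5 each), against 101 ± 26.6 in knockout livers (SD, n = 5) and 123 ± 12.9 CPM in wild-type livers (SD, n = 4), a log2 difference of -9.81 (SE 0.24, edgeR adjusted p = 1.83e-19). Of the 11 laminin and integrin genes 10 were higher in kidney and 0 lower, led by Itga6 (5.4) and Lama5 (3.96). The list of neogenin, BMP and iron genes was mixed. Hamp, which encodes hepcidin, averaged 1540 ± 345 CPM in knockout livers (SD, n = 5) and 1610 ± 807 CPM in wild-type livers (SD, n = 4) and at most 0.495 CPM in a kidney. Tmprss6, the protease that cleaves hemojuvelin, had a log2 difference of -12.02, while Bmp6, the ligand that induces hepcidin, was higher in kidney by 2.75. In that list of 16 genes 6 were higher and 7 lower with TMM, and 9 higher and 5 lower with library totals.

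Several genes of the shared signalling machinery had the opposite sign with library totals, which shift all genes alike. Of 15 signalling genes 10 were higher and 3 lower in kidney with TMM, and 14 higher and 1 lower with library totals. Enah, an actin regulator, was higher by 5.46 and the kinase gene Pak1 by 4.08. The adaptor gene Nck1 was at -1.25 with TMM and -0.34 with library totals, while the kinase gene Fyn was at -0.19 with TMM and 0.72 with library totals, and at -0.36 relative to the median of all genes with both. Of 8 genes of dependence receptor death 2 were higher and 5 lower in kidney with TMM, against 6 higher and 1 lower with library totals. Siva1, a proapoptotic adaptor gene, was at -0.74 with TMM and 0.17 with library totals, or -0.91 and -0.90 relative to the median of all genes. Ppp2r1b (0.51), a phosphatase subunit, and the adaptor gene Appl1 (0.32) were higher with both.

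Summed over each of 4 lists, markers of cell types that could carry these genes overlapped between genotypes. Nerve markers, 9 genes of neurons and Schwann cells, summed to 5.68 to 12.3 CPM in knockout kidneys and 5.55 to 7.80 CPM in wild-type kidneys. They summed to 1.15 to 3.39 CPM in knockout livers and 1.98 to 2.91 CPM in wild-type livers, where 3 and 4 of the 9 had no count. Endothelial markers ran from 481 to 554 CPM in knockout kidneys and from 510 to 530 CPM in wild-type kidneys. In liver they ran from 288 to 331 CPM in knockouts and from 293 to 337 CPM in wild types. Fibroblast and pericyte markers summed to 253 to 288 CPM in knockout kidneys and 272 to 317 CPM in wild-type kidneys. In liver they summed to 226 to 291 CPM in knockouts and 276 to 343 CPM in wild types. There all 7 tested genes of that list were lower in knockouts, with a median log2 difference of -0.18, against 0 for all genes. Proximal tubule markers summed to 5760 to 6710 CPM in knockout and 6500 to 7370 CPM in wild-type kidneys. Of the 6 tubule markers 3 were higher and 3 lower in knockout kidneys, with log2 differences from -0.25 to 0.31 and a median of 0.02. The lowest, the phosphate transporter gene Slc34a1, did not overlap, at 3570 to 3770 CPM in knockout kidneys and 4150 to 4790 CPM in wild-type kidneys (log2 difference -0.25, SE 0.08, edgeR adjusted p = 0.999). Over all genes tested in kidney, 0.307% were lower and 0.266% higher in knockouts without overlap. Of these 4 lists edgeR called 0 genes in either tissue, and their part in the Unc5a values was not tested.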

How the data were processed

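The authors deposited raw counts per gene, with no normalization. GRCm38 is the build in the submitters' processing notes, and the tools listed there are featureCounts, STAR, DESeq2 and Trim Galore, with no role given; how strand was treated is not given in the sources used here. Every gene in the table summed to at least 10 counts. Identifiers were matched to GENCODE mouse release M21, which gave symbols for 26417 genes and none for 89, with positions and exon lengths. Each tissue was fitted on its own, and kidney minus liver and the difference of effects in 1 fit of all 19 libraries, by edgeR 4.0.16's quasi-likelihood test (R 4.3.3, TMM, filterByExpr at a minimum count of 10). Two-sided p-values were adjusted by Benjamini-Hochberg over every gene in the fit and called under 0.05. This left 17269 genes in kidney, 14591 in liver and 18549 in the joint fit. Intervals at 95% come from the F statistic. The fits were tested on simulated counts. Alternatives were DESeq2 1.42.0, its size factors, library totals, no filter, a block for mouse number, a joint fit for the knockout effects and leaving out mice.

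The members and lists were chosen with earlier results of these data known. Named genes were the 6 members, H2afy, from the 7 pathway lists the 3 smallest p per tissue and the largest differences between tissues, and the 5 genes nearest to Unc5a in pattern. A gene that this rule takes is not reported here. Hk3, Tspan17 and Uimc1 were added by position, and Dcc, Unc5d, Draxin, Th, Dbh, Slc34a1 and the genes named among the other observations after their values were seen.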

Additional observations from a re-analysis of the deposited data

How the results depend on the processing

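Across 16 alternatives in kidney and 15 in liver, the Unc5a log2 difference, knockout minus wild type, ran from -2.59 to -2.22 and from -2.00 to -1.42. Kidney minus liver for Unc5a ran from -0.92 to 0.11, the top with library totals, the 1 alternative that turned it. The other members stayed within 0.23 of 0 in kidney and 0.29 in liver and were not called in any alternative. Signs turned without mice 16 and 24 for Unc5c in kidney (-0.08) and Unc5b in liver (0.16), and with the replicate block for the difference of effects of Unc5b (0.00). With 1 mouse left out, knockout minus wild type ran in kidney from 0.00 to 0.19 for Unc5b, -0.15 to 0.23 for Unc5c, -0.02 to 0.09 for Neo1 and -0.03 to 0.09 for Ntn1, and in liver from -0.11 to 0.20 for Unc5b and -0.14 to 0.09 for Ntn1; the difference of effects ran from -0.19 to 0.03 for Unc5b and -0.22 to 0.05 for Ntn1. The cause was not tested.

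Genes called by edgeR numbered 1 in kidney, 0 in liver, 15038 between tissues and 0 for the difference of effects. DESeq2 called 15, 42 and 11 for kidney, liver and the difference. With no filter, kidney had 4 and liver 3. In 1 fit of all libraries there were 3 and 21. Without mice 16 and 24 there were 12, 11 and 4. With 1 mouse left out the counts ran from 1 to 10 in kidney (10 without mouse 16, 7 without 24, 2 without 13, 14, 15 or 18), from 0 to 7 in liver (7 without 16, 5 without 24, 1 without 13) and from 0 to 3 for the difference (3 without 16, 1 without 14 or 24). At an unadjusted p under 0.05 edgeR had 609 genes in liver and 765 for the difference. Between tissues the range was 14638 to 15028. Kidney and liver share mouse numbers; the correlation of their deviations across genes was 0.071 to 0.391 per number and highest with the own number in 7 of 9 livers, as a hint only. The replicate block called 15061 genes between tissues and 0 for the difference. Unc5a rests on 13 to 136 counts per library, which limits its precision.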

Other observations

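Within groups, the same libraries tended to carry the highest values of several members in kidney. Knockout kidney 13 was the highest of its group for Unc5b, Neo1, Ntn1 and Ntn4, and the library labelled wild-type 24 was the highest wild-type kidney for Unc5b, Neo1 and Ntn1. For Unc5a both were the lowest of their groups, at 0.306 CPM in knockout kidney 13 and 1.32 CPM in the kidney labelled wild-type 24. Endothelial markers summed to 481 CPM in knockout kidney 13, the lowest of the 10 kidneys, and to 510 CPM in the kidney labelled wild-type 24. Loop and distal tubule markers were highest in these libraries. They summed to 4480 CPM in knockout kidney 13, against 3380 to 3700 CPM in the other knockout kidneys. In the kidney labelled wild-type 24 they summed to 4700 CPM, against 3340 to 3930 CPM in the other wild-type kidneys. These lists were picked after their values were seen, and their part in the members' values was not tested.

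Of 13847 genes tested in both tissues, 5 were lower in knockouts without overlap in each tissue, or 0.0361%, and all 5 lie on chromosome 13. They were H2afy, the gene models Gm47071 and 1810034E14Rik, Ptdss1, which encodes a phosphatidylserine synthase, and the zinc finger gene Zfp429. Gm47071 (55826250 to 56084849) overlaps H2afy, so their reads may be shared. Unc5a, on the same chromosome, was not among them because of the liver labelled wild-type 24, and the other members lie on chromosomes 3, 9, 10 and 11. The share of all tested genes on chromosome 13 was not computed. Kidneys and livers share mouse numbers, so the tissues may not be independent.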
